A study of Mus musculus with 12 samples.

Results

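The genes described here encode 10 proteins that sit on the surface of leukocytes and blood stem cells: Ptprc (CD45), Spn (CD43), Cd33, Thy1, Cd34, Podxl, Cd48, Cd44, Adgrg1 (GPR56) and Cxcr4. They were chosen by name, and their rows were taken from the deposited count table by Ensembl identifier. All 10 were found among the 49671 genes of the table, and all 10 passed the filter on low counts that left 15399 genes for testing. The libraries were made from total RNA of mouse material that the labels give as pooled embryos of embryonic day 9.5, with a strand-specific kit for polyadenylated RNA. The 12 libraries form 4 groups of 3: LYL1 SCL DKO (double KO below), SCL KO (Scl KO), LYL1 KO (Lyl1 KO) and WT (wild type, called Wildtype in the titles). The labels name no strain, sex or knockout allele, record no treatment, and do not say how many embryos went into a pool. Their titles call the replicates biological, but nothing ties a replicate to a litter, so the p-values below measure the spread between these libraries, which may be partly technical.

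Proteins of this kind carry out the contacts of a blood cell with its surroundings. CD45 is a receptor-type phosphatase that sets the activity of Src-family kinases, and CD43, CD34 and podocalyxin are sialomucins, stiff and heavily glycosylated proteins that can either block adhesion or present ligands to selectins. CD33 is an inhibitory receptor of myeloid cells, CD48 a ligand of the SLAM family, CD44 the main receptor for hyaluronan, GPR56 an adhesion G protein-coupled receptor and CXCR4 the receptor for the chemokine CXCL12. In the mouse embryo CD34, CD43 and CD45 are markers of successive steps by which blood cells emerge. Scl (gene symbol Tal1) and Lyl1 are closely related proteins of the basic helix-loop-helix class that bind DNA and act early in blood formation.

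The libraries held between 24324685 and 29212443 counts. As an approximate upper limit for a gene with no count, 3 counts were taken. They came to 0.0936 to 0.131 CPM (counts per 1000000 counts of the library, its total scaled by the TMM method). Tal1 lay at 77.7 to 100.4 CPM in the double KO and 93.4 to 118 CPM in Scl KO, against 513 to 643 CPM in wild type. Lyl1 lay at 56.5 to 108 CPM in the double KO and 85.5 to 90.4 CPM in Lyl1 KO, against 149 to 203 CPM in wild type. The targeted genes were thus lower in each library labelled for their loss, although Lyl1 in Lyl1 KO was not called over all genes (log2 fold change -1.04 ± 0.24, adjusted p = 0.286), and whether the remaining reads come from a deleted stretch cannot be read from counts per gene. The tissue label was checked against marker genes of embryonic organs. The heart genes Nkx2-5, Myh6 and Myl7, the neural genes Sox1 and Neurog1 and the muscle gene Myf5 had no count in any of the 12 libraries. By comparison, 9 megakaryocyte and platelet markers summed to 13765 to 27074 CPM in the double KO, 34978 to 46919 CPM in Scl KO, 50064 to 57703 CPM in Lyl1 KO and 45461 to 52539 CPM in wild type. Other genes of the same lists had reads, with Tnnt2 at up to 1.13 CPM, Tbx6 at up to 1.69 CPM and Nes at up to 86.5 CPM. Several defining genes of these organs were thus not detected and megakaryocyte and platelet genes were abundant, while the red cell genes Klf1, Alas2 and Hba-x had 28, 13 and 5 reads over the 12 libraries. In such bulk libraries, fewer cells of a type and less RNA per cell cannot be told apart.

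In the double KO, 5 of the 10 genes were higher than in wild type (Ptprc, Spn, Thy1, Cd34 and Podxl) and 4 were lower (Cd48, Cd44, Adgrg1 and Cxcr4). A gene is called here when its adjusted p was under 0.05 by edgeR's quasi-likelihood test with Benjamini-Hochberg adjustment over all 15399 genes. Of all genes tested, 34.5% were called in this comparison, 16.4% up and 18.1% down. The median log2 fold change was 0.72 over the 10 genes and 0.04 over all genes tested. The tenth gene, Cd33, was not called (adjusted p = 0.0605). For the 9 called genes, 9 of 10, the 3 double KO libraries did not overlap the 3 wild-type libraries, as was the case for 42.5% of all genes tested. Summed over the 10 genes, the double KO libraries held 1345, 1600.1 and 1356 CPM, against 1895, 1974 and 1781 CPM in wild type.

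**Figure D1:**
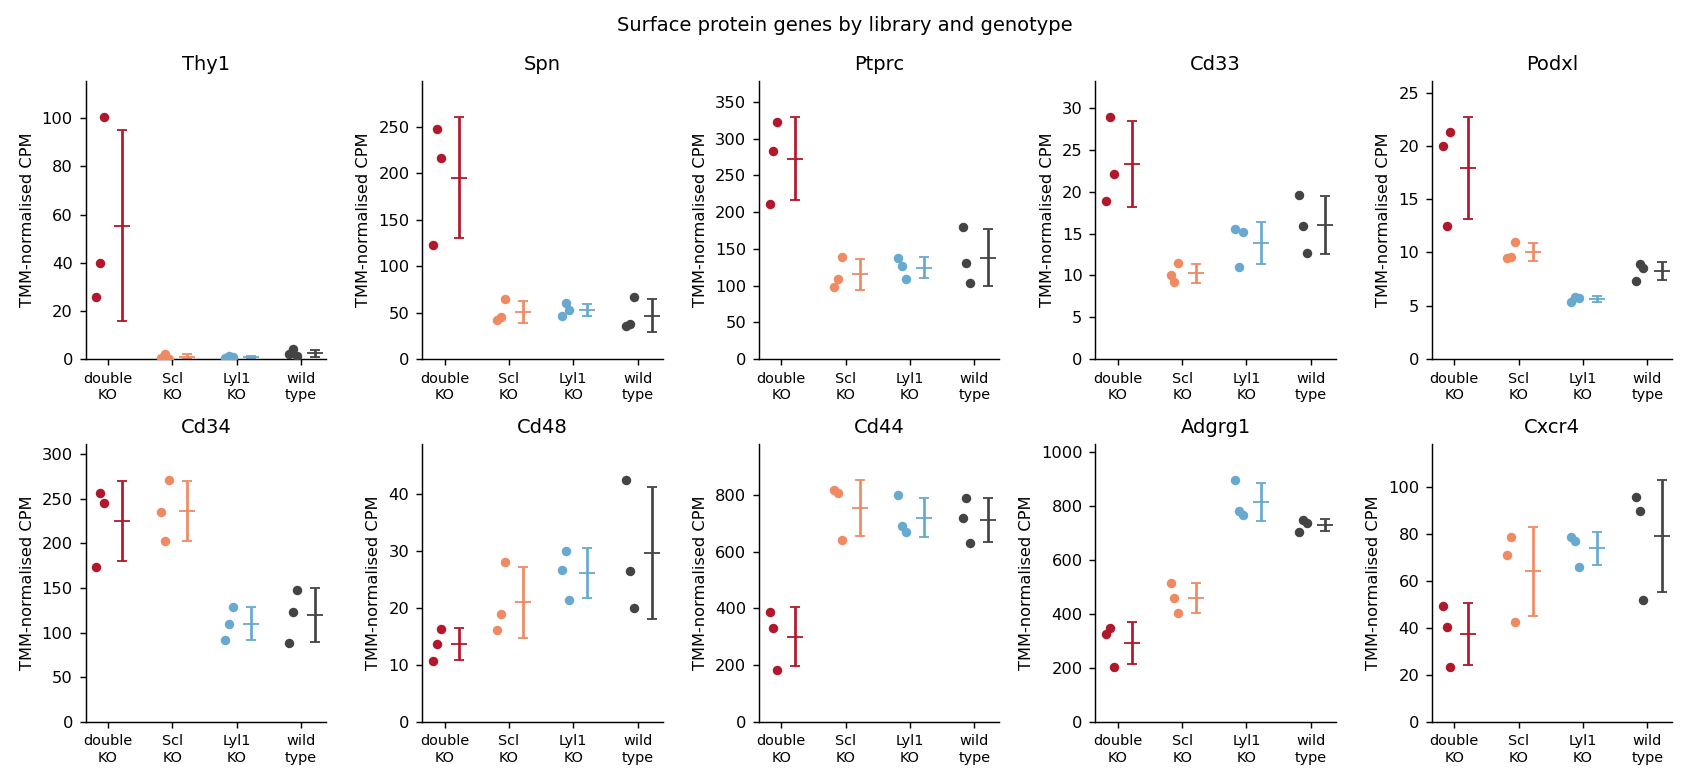
TMM-normalised CPM (vertical axes, linear and from 0, a separate scale for each gene) of the 10 surface protein genes, 1 point a library, with bars beside the points for the group's mean ± SD (n = 3). The double KO libraries lie above the 9 other libraries for Thy1, Spn, Ptprc and Podxl and below them for Cd44 and Adgrg1, whereas for Cd34 the double KO and Scl KO libraries lie together above Lyl1 KO and wild type.

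Ptprc (ENSMUSG00000026395, chromosome 1, 138062861 to 138175708, minus strand, GRCm38) encodes CD45, the phosphatase carried by nearly all nucleated blood cells. Its level was 212, 283 and 323 CPM in the double KO, 98.4, 109 and 138 CPM in Scl KO, 137, 127 and 109 CPM in Lyl1 KO and 179.9, 130.5 and 103 CPM in wild type. All 3 double KO libraries lay above the other 9, and the single KO ranges overlapped that of wild type. The double KO averaged 273 ± 56.5 CPM and wild type 138 ± 39.0 CPM (mean ± SD, n = 3 each), a log2 fold change of 0.99 ± 0.21 (SE; adjusted p = 0.00382). Against Scl KO the log2 fold change was 1.24 ± 0.21 (adjusted p = 0.00201) and against Lyl1 KO 1.13 ± 0.21 (adjusted p = 0.0015).

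Spn (ENSMUSG00000051457, chromosome 7, 127132232 to 127137823, minus strand) encodes CD43, the sialomucin that appears on emerging blood cells ahead of CD45. It had 123, 247 and 216 CPM in the double KO, 42.1, 45.7 and 64.6 CPM in Scl KO, 45.9, 59.7 and 52.7 CPM in Lyl1 KO and 35.1, 37.5 and 67.2 CPM in wild type. The lowest double KO library was thus above every library of the other groups, while the single KO libraries lay within the wild-type range. Spn was up in the double KO by a log2 fold change of 2.07 ± 0.30 against wild type (adjusted p = 0.000258), 1.94 ± 0.30 against Scl KO (adjusted p = 0.00102) and 1.89 ± 0.30 against Lyl1 KO (adjusted p = 0.000428). Both targeted factors bind DNA at E-boxes, CANNTG, of which CAGATG is a form preferred by Scl with its partner protein, and AGATAA is a motif of the GATA factors that join Scl in complexes. The 250 bases upstream of the gene's start are shown because Spn rose the most of the genes for which an upstream sequence was at hand (RefSeq, GRCm38.p6, chr7:127137824-127138073, minus strand, 5′ to 3′, motif matches in capitals).
Spn promoter window: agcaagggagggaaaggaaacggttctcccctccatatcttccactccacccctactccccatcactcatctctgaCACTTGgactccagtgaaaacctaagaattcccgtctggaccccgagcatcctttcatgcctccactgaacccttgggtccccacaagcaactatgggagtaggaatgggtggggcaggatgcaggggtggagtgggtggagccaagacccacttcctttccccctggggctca
The window holds 1 CANNTG match, CACTTG, which ends 169 bases before the transcription start, and neither CAGATG nor AGATAA.

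Of 32851 such upstream windows of all genes, searched on both strands, 66.2% hold a CANNTG, 14.4% a CAGATG, which is itself a CANNTG, and 9.99% an AGATAA. RefSeq windows matched 8 of the 10 genes, with 10 windows, of which 6 hold a CANNTG, 1 (Ptprc) a CAGATG and 2 (Ptprc and Cd44) an AGATAA. A match describes letters and not a bound site. Only the windows of Spn, Cd44 and Cxcr4 overlap no annotated exon (GENCODE vM21), and these 3 are the ones printed.

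Cd33 (ENSMUSG00000004609, chromosome 7, 43524216 to 43544428, minus strand) belongs to the Siglecs, receptors that bind sialic acid. Its level was 18.9, 28.9 and 22.2 CPM in the double KO, 10.02, 9.24 and 11.5 CPM in Scl KO, 15.6, 10.998 and 15.1 CPM in Lyl1 KO and 19.6, 15.9 and 12.7 CPM in wild type. The Scl KO libraries lay below all 3 wild-type libraries, and the lowest double KO library fell within the wild-type range. Cd33 differed in the double KO by a log2 fold change of 0.54 ± 0.21 from wild type, which was not called, but by 1.19 ± 0.21 from Scl KO (adjusted p = 0.00223) and 0.75 ± 0.21 from Lyl1 KO (adjusted p = 0.0144). The last call was lost without Lyl1 KO 2 or without double KO 2 (adjusted p up to 0.0745), and the double KO against wild type was called without wild type 1 or without double KO 1 (adjusted p down to 0.0375).

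Thy1 (ENSMUSG00000032011, chromosome 9, 44043384 to 44048579, plus strand) encodes a small GPI-anchored glycoprotein known from T cells, neurons, fibroblasts and, in the mouse, blood stem cells. On the log2 scale it was the member with the widest range. Its reads numbered 775, 1196 and 3217 in the double KO libraries, or 26.0, 39.7 and 100.4 CPM. In Scl KO it had 14, 57 and 6 reads (0.542, 2.03 and 0.210 CPM) and in Lyl1 KO 7, 30 and 17 reads (0.284, 1.13 and 0.723 CPM). In wild type it had 48, 93 and 32 reads (2.00, 4.05 and 1.17 CPM). Every double KO library was above every other library, and double KO 3 stood well above double KO 1 and 2. The log2 fold change of the double KO was 4.54 ± 0.73 against wild type (adjusted p = 0.000544), and it ranged from 3.77 to 5.16, called each time, when 1 of the 6 libraries was left out. Against Scl KO it was 5.89 ± 0.79 (adjusted p = 0.000478) and against Lyl1 KO 6.26 ± 0.82 (adjusted p = 0.000117).

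Lists of markers of cells that can carry Thy1 were read beside it. Of 7 T and NK cell markers, 1 (Cd4) reached 1 CPM in any library, and Cd3d, Cd3e and Cd3g stayed at or under 0.305 CPM. The list summed to 5.38 to 8.27 CPM in the double KO, 9.77 to 16.1 CPM in Scl KO, 6.72 to 20.0 CPM in Lyl1 KO and 3.75 to 39.4 CPM in wild type. The 5 fibroblast markers summed to 11.3 to 22.6 CPM in the double KO, 19.1 to 298 CPM in Scl KO, 10.6 to 64.9 CPM in Lyl1 KO and 71.3 to 121 CPM in wild type. The T and NK sum was nearly all Cd4, at 5.53 CPM in the double KO and 22.3 CPM in wild type. Its other 6 genes had their highest group mean in the double KO but stayed at 0.287 CPM or lower there (Cd5 highest, against 0.0787 CPM in wild type). The 5 neural markers summed to 24.5 to 86.5 CPM in the double KO, 11.4 to 24.8 CPM in Scl KO, 0.810 to 4.67 CPM in Lyl1 KO and 3.83 to 5.29 CPM in wild type. Of these only Nes, which encodes nestin, reached 1 CPM in any library. The highest value of that list was in double KO 3, the library with the most Thy1. The part of any of these cells in the Thy1 level was not tested.

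Cd34 (ENSMUSG00000016494, chromosome 1, 194938819 to 194961279, plus strand) and Podxl (ENSMUSG00000025608, chromosome 6, 31519488 to 31563981, minus strand) encode the closely related sialomucins CD34 and podocalyxin of blood stem cells and endothelium. Cd34 stood at 174, 257 and 245 CPM in the double KO, 235, 203 and 271 CPM in Scl KO, 92.1, 109 and 129 CPM in Lyl1 KO and 88.4, 123 and 148 CPM in wild type. All 6 libraries labelled for the loss of Scl lay above all 6 libraries of Lyl1 KO and wild type. Relative to wild type, Cd34 was up by a log2 fold change of 0.91 ± 0.21 in the double KO (adjusted p = 0.00519) and of 0.98 ± 0.21 in Scl KO (adjusted p = 0.0176). Between the double KO and Scl KO it differed by -0.07 ± 0.20 (adjusted p = 0.849). The Scl KO call was lost without any 1 of Scl KO 1, Scl KO 3, wild type 1 and wild type 2 (adjusted p up to 0.0827). The antisense gene Gm16897 overlaps Cd34 on the other strand. It rose as well, to 2.03 CPM in the double KO (adjusted p = 3.81e-05) and 0.659 CPM in Scl KO (adjusted p = 0.00743), against 0.106 CPM in wild type, where it lay at about the level of 3 counts.

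Podxl had 20.0, 12.5 and 21.3 CPM in the double KO, 9.48, 9.56 and 10.99 CPM in Scl KO, 5.31, 5.80 and 5.74 CPM in Lyl1 KO and 7.33, 8.89 and 8.57 CPM in wild type. The 4 groups did not overlap one another. Podxl was up in the double KO by a log2 fold change of 1.12 ± 0.19 against wild type (adjusted p = 0.000808), 0.84 ± 0.19 against Scl KO (adjusted p = 0.00876) and 1.67 ± 0.19 against Lyl1 KO (adjusted p = 5.06e-05). Beside these sialomucins, the list of 9 endothelial markers summed to 207 to 325 CPM in the double KO, 305 to 435 CPM in Scl KO, 482 to 531 CPM in Lyl1 KO and 463 to 531 CPM in wild type. Of its genes, 5 fell and 1 rose in the double KO against wild type, and Cdh5, which encodes VE-cadherin, averaged 1.87 CPM in the double KO, 5.61 CPM in Scl KO, 1.68 CPM in Lyl1 KO and 11.8 CPM in wild type. Most of the difference in the sum was Esam, at 70.6 CPM in the double KO and 298 CPM in wild type, while Tie1, the gene that rose, was at 132 CPM in the double KO and 93.5 CPM in wild type. The part of endothelial cells in either gene's level was not tested.

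Cd48 (ENSMUSG00000015355, chromosome 1, 171682009 to 171705258, plus strand) encodes a GPI-anchored protein whose absence, with the presence of SLAMF1 (CD150), is used to sort blood stem cells of the adult mouse. It stood at 10.7, 13.7 and 16.4 CPM in the double KO, 16.1, 18.9 and 28.0 CPM in Scl KO, 26.8, 30.1 and 21.4 CPM in Lyl1 KO and 42.6, 26.5 and 19.9 CPM in wild type. The 3 double KO libraries lay below those of wild type and Lyl1 KO and overlapped those of Scl KO. The log2 fold change was -1.12 ± 0.28 against wild type (adjusted p = 0.00969), and the call was lost without wild type 1, the highest library (adjusted p = 0.051). It was -0.63 ± 0.28 against Scl KO (adjusted p = 0.147) and -0.94 ± 0.28 against Lyl1 KO (adjusted p = 0.0225), and this last call was lost without any 1 of Lyl1 KO 1, Lyl1 KO 2, double KO 1 and double KO 2 (adjusted p up to 0.0837) and with no filter on low counts (adjusted p = 0.0523).

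Cd44 (ENSMUSG00000005087, chromosome 2, 102811141 to 102901665, minus strand) encodes the hyaluronan receptor that blood cells use to hold on to matrix. Its level was 386, 331 and 184 CPM in the double KO, 816, 806 and 641 CPM in Scl KO, 798, 692 and 669 CPM in Lyl1 KO and 718, 788 and 632 CPM in wild type. The double KO libraries lay below all 9 others, and the other 3 groups shared 1 range. The double KO averaged 300.2 ± 105 CPM and wild type 713 ± 78.0 CPM, a log2 fold change of -1.25 ± 0.23 (adjusted p = 0.00126). It was -1.33 ± 0.23 against Scl KO (adjusted p = 0.00189) and -1.26 ± 0.23 against Lyl1 KO (adjusted p = 0.0011). The upstream window is shown as that of a gene that fell in the double KO and was called in neither single KO against wild type (chr2:102901666-102901915, minus strand).
Cd44 promoter window: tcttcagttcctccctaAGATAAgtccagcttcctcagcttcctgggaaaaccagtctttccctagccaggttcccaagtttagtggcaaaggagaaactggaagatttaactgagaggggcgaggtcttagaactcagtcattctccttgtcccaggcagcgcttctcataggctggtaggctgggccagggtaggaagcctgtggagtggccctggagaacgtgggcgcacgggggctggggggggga
It holds 1 AGATAA match, in capitals, and no CANNTG.

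Adgrg1 (ENSMUSG00000031785, chromosome 8, 94974751 to 95014217, plus strand) encodes GPR56, an adhesion receptor found on blood stem cells and on platelets. It lies 10.27 Mb from Lyl1. Its level was 326, 347 and 205 CPM in the double KO, 515, 459.8 and 406 CPM in Scl KO, 898, 784 and 769 CPM in Lyl1 KO and 706, 751 and 737 CPM in wild type. The 4 groups did not overlap, with Lyl1 KO on top and the double KO at the bottom. Adgrg1 in the double KO had a log2 fold change of -1.32 ± 0.18 against wild type (adjusted p = 0.000156), -0.65 ± 0.18 against Scl KO (adjusted p = 0.0226) and -1.48 ± 0.18 against Lyl1 KO (adjusted p = 6.85e-05). The call against Scl KO was lost without Scl KO 1 or without Scl KO 2 (adjusted p up to 0.0846), and in the fit of only the 6 libraries compared (adjusted p = 0.0968). Scl KO itself stood at a log2 fold change of -0.67 ± 0.18 against wild type and just missed the threshold (adjusted p = 0.0505). It passed under 6 of 13 alternatives, among them DESeq2's Wald test and the fit of only the 6 libraries compared (adjusted p from 0.00408 to 0.149 over the 13).

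Cxcr4 (ENSMUSG00000045382, chromosome 1, 128588199 to 128592293, minus strand) encodes the receptor that holds blood stem cells in their niche through CXCL12. It had 49.2, 40.1 and 23.1 CPM in the double KO, 70.8, 78.4 and 42.5 CPM in Scl KO, 78.7, 76.9 and 65.8 CPM in Lyl1 KO and 95.8, 89.5 and 51.8 CPM in wild type. The double KO libraries lay below those of wild type and Lyl1 KO, and their highest was above the lowest of Scl KO. Cxcr4 in the double KO had a log2 fold change of -1.08 ± 0.30 against wild type (adjusted p = 0.016), -0.77 ± 0.30 against Scl KO (adjusted p = 0.0951) and -0.98 ± 0.30 against Lyl1 KO (adjusted p = 0.0242). Between the double KO and Scl KO, Cxcr4 was called in 4 of 13 alternatives, among them the fit with the replicate number as a block (-0.79 ± 0.14, adjusted p = 0.00266). At each replicate number the double KO library was the lower. The labels do not pair libraries by number, however, and double KO 1 deviated with Scl KO 2 (correlation 0.2315) as much as with Scl KO 1 (0.2155). Double KO 3, in contrast, deviated with Scl KO 3 (0.4407) and not with Scl KO 1 or 2 (-0.2921 and -0.3042). In each group the library numbered 3 had the lowest Cxcr4. Without a reason in the labels to pair libraries, Cxcr4 is counted as not called between these groups. The call against wild type was lost without wild type 1 or without wild type 2 (adjusted p up to 0.056) and with no filter on low counts (adjusted p = 0.0575). The call against Lyl1 KO was lost without any 1 of Lyl1 KO 1, Lyl1 KO 2, double KO 2 and double KO 3 (adjusted p up to 0.0716) and with no filter (adjusted p = 0.079). The upstream window is shown beside that of Cd44 as that of a gene that fell in the same comparison (chr1:128592300-128592549, minus strand).
Cxcr4 promoter window: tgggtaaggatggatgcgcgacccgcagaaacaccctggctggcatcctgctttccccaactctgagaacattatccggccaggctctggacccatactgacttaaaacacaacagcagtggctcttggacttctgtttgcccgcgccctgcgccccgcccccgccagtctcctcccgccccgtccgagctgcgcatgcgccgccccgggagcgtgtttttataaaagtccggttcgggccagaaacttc
It holds none of the 3 motifs.

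The comparisons between the double KO and the single KOs count as follows. Against Scl KO, 7 of the 10 genes were called, beside 19.1% of all genes tested. Of these, 5 were higher (Ptprc, Spn, Cd33, Thy1 and Podxl), beside 8.37% of all genes, and 2 were lower (Cd44 and Adgrg1), beside 10.8%. Libraries did not overlap for 7 of the 10 genes, beside 33.4% of all genes. Against Lyl1 KO, all 10 were called, beside 35.2% of all genes tested, with 6 up (beside 17.4%) and 4 down (beside 17.9%). For each of the 10 genes the libraries did not overlap, as for 49.7% of all genes. The summed level of Ptprc, Spn, Cd33 and Thy1 was 379, 599 and 662 CPM in the double KO libraries, against 151 to 215 CPM in Scl KO, 177 to 199 CPM in Lyl1 KO and 184 to 237 CPM in wild type.

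The single knockouts differed far less from wild type. In Scl KO, 1 of the 10 genes was called, Cd34, which was up, and none was called down, beside 5.03% of all genes tested, 2.29% up and 2.73% down. Libraries did not overlap for 4 of the 10, Cd34, Adgrg1, Cd33 and Podxl, beside 22.4% of all genes. The other 9 had log2 fold changes between -1.35 ± 0.77 for Thy1 (adjusted p = 0.405) and 0.28 ± 0.19 for Podxl (adjusted p = 0.506). DESeq2's Wald test called Cd33 (adjusted p = 0.0491) and Adgrg1 besides. In Lyl1 KO, none of the 10 genes was called by edgeR's quasi-likelihood test, by DESeq2's Wald test or by limma-voom, beside 0.0714% of all genes by edgeR, 0.039% up and 0.0325% down. Libraries did not overlap for 3 of the 10, Podxl, Thy1 and Adgrg1, beside 15.9% of all genes. At an unadjusted p under 0.05, 1 gene differed. This was Podxl, at a log2 fold change of -0.56 ± 0.19 (adjusted p = 0.519). Thy1 stood at -1.72 ± 0.81 (adjusted p = 0.635), and the other 8 genes lay between -0.21 ± 0.21 for Cd33 and 0.18 ± 0.29 for Spn.

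**Figure D2:**
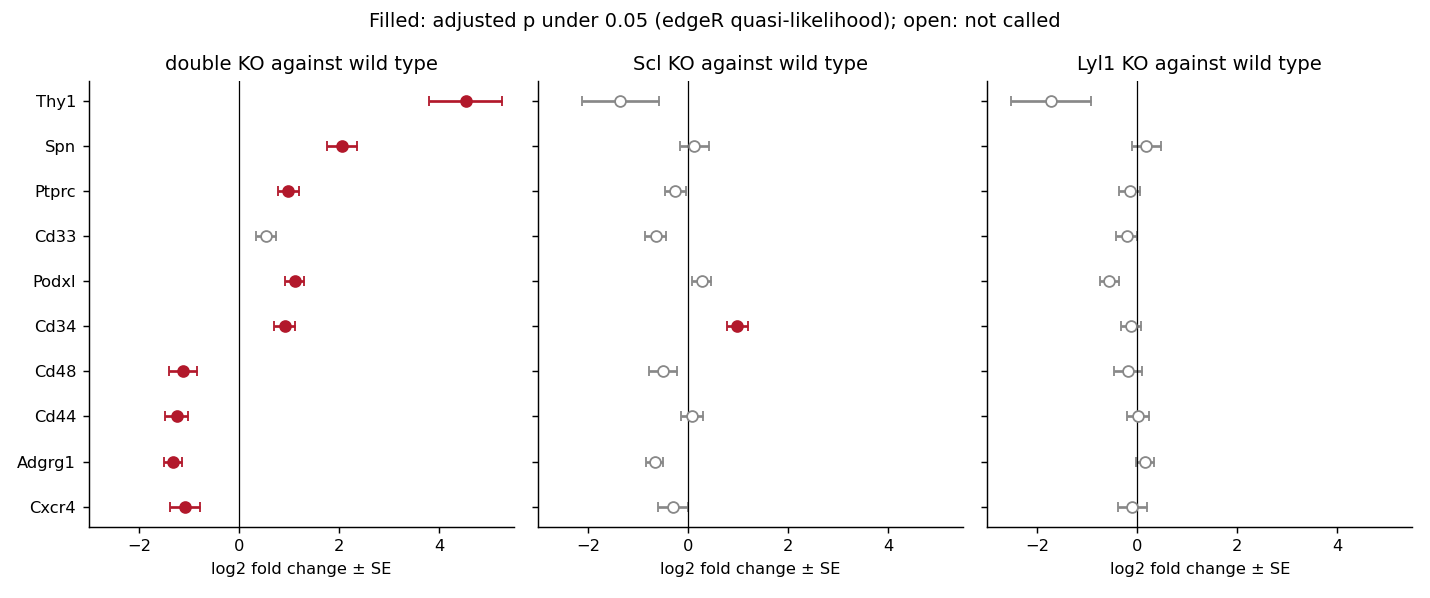
Log2 fold change of each of the 10 genes (horizontal axis, bars 1 SE) in the double KO, Scl KO and Lyl1 KO against wild type, filled where the adjusted p was under 0.05. In the double KO 9 genes are called, 5 to the right and 4 to the left of 0, in Scl KO 1 (Cd34) and in Lyl1 KO none.

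Whether the loss of Lyl1 had another effect without Scl than with it was tested as an interaction. This is the double KO's log2 fold change over Scl KO, less the log2 fold change of Lyl1 KO over wild type. It was called for 6 of the 10 genes, beside 9.38% of all genes tested, 3.51% up and 5.86% down. It was positive for Thy1 (7.61 ± 1.10, adjusted p = 0.00221), Spn (1.76 ± 0.41, adjusted p = 0.0215), Podxl (1.40 ± 0.27, adjusted p = 0.00901), Cd33 (1.40 ± 0.29, adjusted p = 0.0138) and Ptprc (1.39 ± 0.30, adjusted p = 0.0155). It was negative for Cd44 (-1.34 ± 0.32, adjusted p = 0.0227). Thy1 and Podxl thus stood lower in Lyl1 KO than in wild type, without a call, but were higher in the double KO than in Scl KO. For Cd34 the interaction was 0.05 ± 0.29 (adjusted p = 0.941), for Adgrg1 -0.81 ± 0.25 (adjusted p = 0.0629), for Cxcr4 -0.67 ± 0.42 (adjusted p = 0.36) and for Cd48 -0.45 ± 0.40 (adjusted p = 0.543). When 1 library was left out, between 3 and 7 of the 10 genes were called. The lowest count came without Scl KO 1, when Ptprc (adjusted p = 0.0535), Spn and Cd44 were lost. Spn was also lost without Lyl1 KO 1, Scl KO 2 or double KO 2 (adjusted p up to 0.0653) and with no filter on low counts (adjusted p = 0.0785), and Cd44 without Lyl1 KO 1 or Scl KO 2 (adjusted p up to 0.0633).

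**Figure D3:**
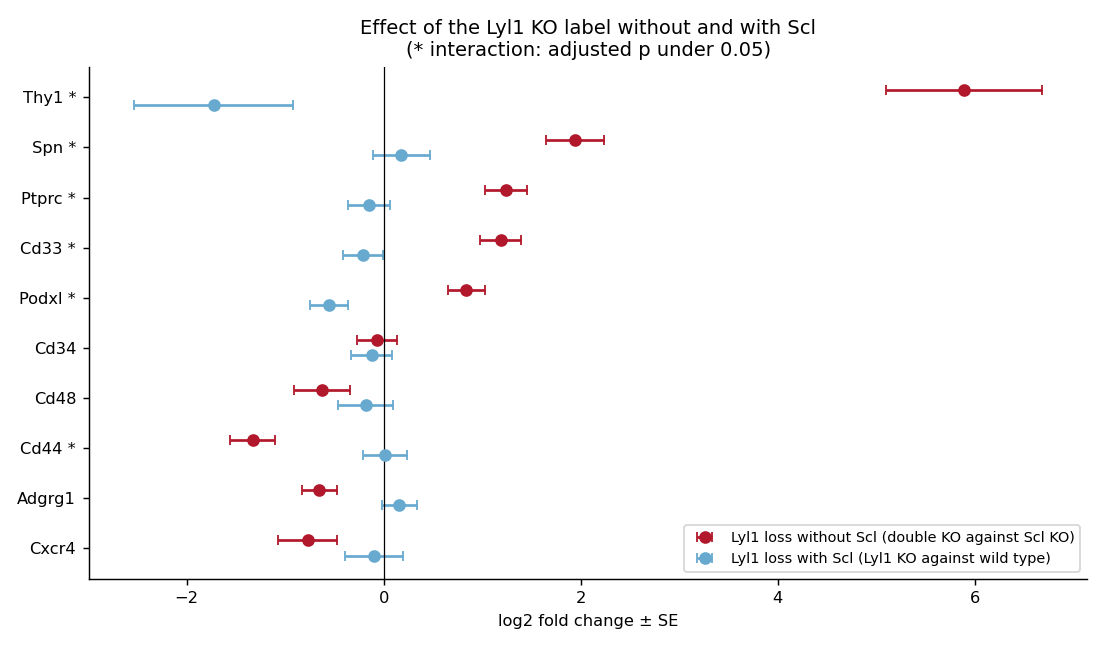
Log2 fold change (horizontal axis, bars 1 SE) for the loss of Lyl1 without Scl (double KO against Scl KO) and with Scl (Lyl1 KO against wild type) for the 10 genes, with an asterisk where the interaction had an adjusted p under 0.05. For Thy1 the 2 effects are 5.89 and -1.72, whereas for Cd34 they are -0.07 and -0.12.

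Per length, the order of the genes also differed between genotypes. Levels were divided by the exon length of each gene to give RPKM, CPM for each kilobase of exon, which allows a rough comparison between genes. The lengths, from 1189 bases for Cd48 to 18313 bases for Ptprc, are those of annotated exons. They need not match the transcripts present, and the order of genes within a group depends on them. In wild type the order was Adgrg1 (135 RPKM), Cd44 (105), Cxcr4 (43.7), Cd48 (24.9), Cd34 (16.4), Spn (9.95), Ptprc (7.52), Cd33 (2.07), Podxl (1.51) and Thy1 (0.803). The wild-type ranges of neighbours in this order overlapped from Cxcr4 through Ptprc and between Podxl and Thy1. Lyl1 KO had the same order, with an overlap between Cd34 and Spn alone. In Scl KO Cd44 (111 RPKM) and Adgrg1 (84.9 RPKM) overlapped at the top, and Cd34 (32.4 RPKM) stood above Cd48 (17.7 RPKM) with no overlap. In the double KO the span was narrower. Adgrg1 (54.0 RPKM), Cd44 (44.3), Spn (41.7), Cd34 (30.9), Cxcr4 (20.7), Thy1 (18.5), Ptprc (14.9) and Cd48 (11.4) each overlapped the next in order, and Podxl (3.27) and Cd33 (3.00) lay below them. Thy1 was thus the lowest of the 10 genes in the other groups and the sixth in the double KO.

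Proteins that work with the 10 were followed in 9 lists of 89 genes, of which 83 passed the filter. In the double KO against wild type 11 rose and 29 fell, beside 16.4% and 18.1% of all genes tested, with a median log2 fold change of -0.47, against 0.04 over all genes. In Scl KO against wild type 2 rose (Adgrg3 and Tgm2) and 3 fell (Fyn, Lyn and Cd59a), beside 5.03% of all genes called, and in Lyl1 KO 1 fell (Adgre5), beside 0.0714%. The count in Scl KO was thus near the share of all genes. The lists were chosen with results of these data known, and their counts describe these genes alone.

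**Figure D4:**
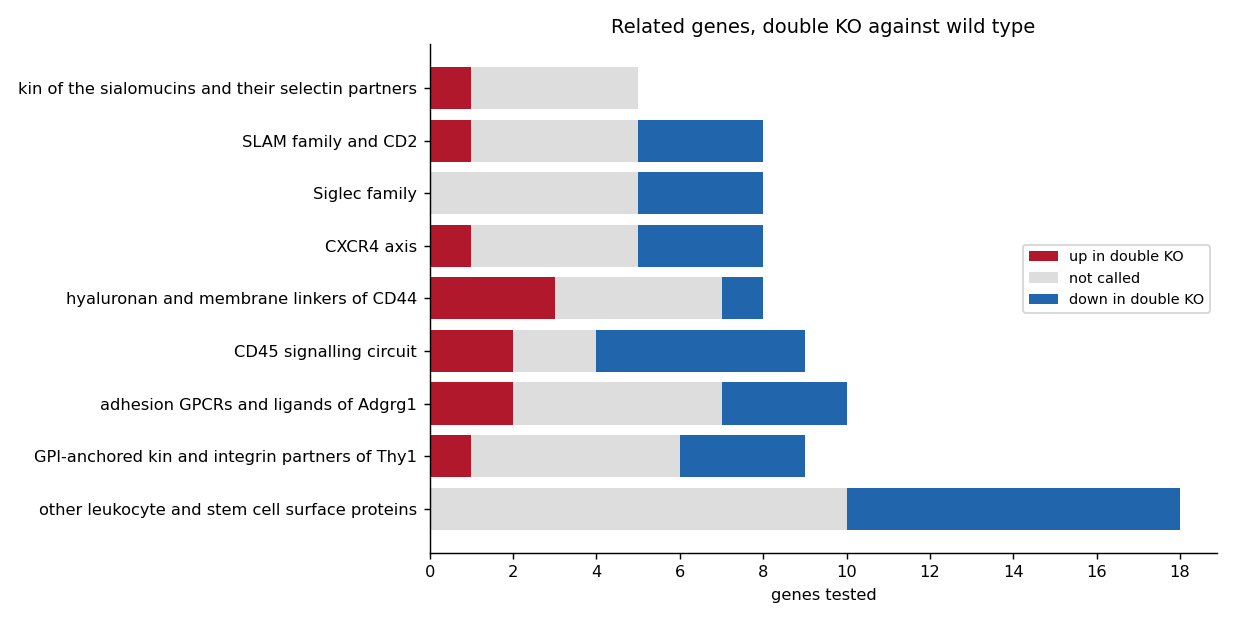
Number of tested genes (horizontal axis) that were called up, not called or called down in the double KO against wild type in each of the 9 lists of related genes. The list of CD44 ligands and membrane linkers has 3 genes up and 1 down, and the list of other leukocyte and stem cell surface proteins has 8 down and none up.

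The genes around CD45 moved in both directions. Of 9 tested, 2 rose and 5 fell in the double KO against wild type. Ptprcap, which encodes a protein bound to CD45, stood at 44.7 ± 22.9 CPM in the double KO and 5.85 ± 1.13 CPM in wild type (log2 fold change 2.93 ± 0.33, adjusted p = 4.18e-05). Ptpn6, the phosphatase SHP-1, was at 143 CPM in the double KO and 61.6 CPM in wild type (adjusted p = 0.000353). The Src-family kinases that CD45 acts on fell, Fyn to 81.5 CPM in the double KO, against 289 CPM in wild type (adjusted p = 8.32e-07), and Lyn to 181 CPM, against 598 CPM (adjusted p = 1.94e-05). Ptprj, another receptor phosphatase of blood cells and platelets, fell to 302 CPM in the double KO, against 1705 CPM in wild type (adjusted p = 9.17e-05).

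In the SLAM family, 3 of 8 genes fell and 1 rose. Slamf1 (CD150) had the largest fall, to 43.3 ± 31.6 CPM in the double KO and 373 ± 96.7 CPM in Scl KO, against 722 ± 94.0 CPM in wild type. Its log2 fold change in the double KO was -4.06 ± 0.44 (adjusted p = 3.56e-05). Cd84 and Ly9 fell by 1.29 ± 0.21 and 1.03 ± 0.33 on the log2 scale. Cd244a, the receptor for CD48, rose to 31.2 ± 13.99 CPM in the double KO, against 8.49 ± 3.51 CPM in wild type (adjusted p = 0.00164). These genes are neighbours of Cd48 on chromosome 1, at 61.9 kb for Slamf1, 72.3 kb for Cd244a, 74.6 kb for Ly9 and 134.4 kb for Cd84. In the list of Siglecs none of 8 genes rose and 3 fell, Siglec1, Siglecg and Siglech, by 1.38 ± 0.42, 1.63 ± 0.50 and 2.31 ± 0.71 on the log2 scale. For Siglec1 the double KO libraries overlapped those of wild type. Siglecg averaged 1.06 CPM in the double KO and 3.29 CPM in wild type. It was about as low in Scl KO (1.01 CPM) and Lyl1 KO (1.02 CPM), without a call there. Siglech stood at 0.729 ± 0.203 CPM in the double KO, against 3.64 ± 2.80 CPM in wild type.

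Of 8 tested genes around CXCR4, 1 rose and 3 fell in the double KO against wild type. Cxcl12, the gene of the CXCR4 ligand, stood at 19.1 ± 11.5 CPM in the double KO and 2.15 ± 1.37 CPM in wild type (log2 fold change 3.15 ± 0.82, adjusted p = 0.0112). Ackr3, the scavenging receptor for CXCL12, fell by 2.96 ± 0.86 on the log2 scale, Arrb2, which encodes beta-arrestin 2, by 1.18 ± 0.14 and Dpp4, a protease that inactivates CXCL12, by 1.495 ± 0.38. Of the 8 tested partners of CD44, 3 rose and 1 fell. Ezr (ezrin) rose by 1.21 ± 0.17, Mmp14, a membrane protease, by 1.00 ± 0.31 and Rdx (radixin) by 0.37 ± 0.10 on the log2 scale. Lyve1, the hyaluronan receptor of lymphatic vessels and some macrophages, fell to 2.09 ± 0.820 CPM in the double KO, against 17.9 ± 5.21 CPM in wild type (adjusted p = 3.34e-05).

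Among the kin and ligands of GPR56, 2 of 10 tested genes rose and 3 fell. Tgm2, the transglutaminase that GPR56 binds, stood at 1296 ± 498 CPM in the double KO, 286 ± 174 CPM in Scl KO and 88.6 ± 12.8 CPM in wild type. Its log2 fold change in the double KO was 3.87 ± 0.39 (adjusted p = 2.22e-05). Adgrg3, an adhesion receptor gene 3.5 kb from Adgrg1, rose where Adgrg1 was low, to 325 ± 52.8 CPM in the double KO and 219.6 ± 26.3 CPM in Scl KO, against 97.5 ± 12.7 CPM in wild type (adjusted p = 1.34e-05 and 0.00145). Adgre5 (CD97) fell in the double KO by 1.29 ± 0.14 and in Lyl1 KO by 1.55 ± 0.14 on the log2 scale (adjusted p = 3.54e-05 and 0.000574). Of 9 GPI-anchored kin and integrin partners of Thy1, 1 rose and 3 fell. Ly6e rose to 299 CPM in the double KO, against 94.0 CPM in wild type, whereas Cd59a, an inhibitor of complement, fell to 3.35 ± 0.238 CPM, against 67.1 ± 13.4 CPM (log2 fold change -4.32 ± 0.18, adjusted p = 6.55e-08). Of 18 other leukocyte and stem cell surface proteins 8 fell and none rose. These included Itgb2, the common chain of the leukocyte integrins, at 321 CPM in the double KO and 724 CPM in wild type, and Esam, at 70.6 CPM in the double KO and 298 CPM in wild type. Among the 5 tested kin and partners of the sialomucins, Cd164 alone was called, with a log2 fold change of 0.40 ± 0.14.

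Genes near the members on the chromosome were also read in the double KO against wild type. Within 500 kb, 7 of 27 tested neighbours of Thy1 rose and 6 fell, where 16.4% of all genes rose and 18.1% fell. Among those called, Usp2, the gene of a ubiquitin protease 18.4 kb away, stood at 20.5 CPM in the double KO, 5.72 CPM in Scl KO, 3.19 CPM in Lyl1 KO and 2.49 CPM in wild type, and it rose in both the double KO (log2 fold change 3.04 ± 0.19, adjusted p = 7.32e-07) and Scl KO (1.20 ± 0.18, adjusted p = 0.00275). Near Spn, 6 of 53 rose and 7 fell, shares below those of all genes, and Itgal, the LFA-1 chain gene 158.4 kb away, fell to 30.1 CPM in the double KO and 60.2 CPM in Scl KO, against 228 CPM in wild type (adjusted p = 5.43e-06 and 0.00064). Near Cd44, Slc1a2, a glutamate transporter gene 20.4 kb away, rose by 2.27 ± 0.29 on the log2 scale.

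The pattern most like each member's over the 12 libraries was sought among 12802 genes with a mean of at least 1 CPM, by the root mean square (RMS) difference of log2 CPM after each gene's mean was taken off. For Ptprc these were Lrrk2 (RMS difference 0.141, against a spread of 0.548 of Ptprc itself) and Ptpn6 (0.155). For Spn they were Rab38 (0.193) and Ece1 (0.248), for Cd34 Glce (0.176) and Nt5e (0.222), and for Podxl Sox12 (0.159) and Trip6 (0.198). Thy1 had no close match, with Klhl30 (0.793) and Adm (0.932) nearest, beside a spread of 2.63 of Thy1 itself. For Cd33 the nearest were Sema4a (0.192) and Mgat4a (0.208), for Cd48 Tmem206 (0.118) and Fblim1 (0.145), for Cd44 Triqk (0.119) and Tnfsf14 (0.1199), for Adgrg1 4931406C07Rik (0.129) and Arrb2 (0.133), and for Cxcr4 Tecpr2 (0.136) and Usp54 (0.140). Among the 10 genes themselves the closest were Ptprc and Cd33 (0.280) and Cd44 and Cxcr4 (0.287).

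Summed markers of other blood cells are given beside these results. The B cell list summed to 5.31 to 12.4 CPM in the double KO and 8.75 to 44.4 CPM in wild type. In Scl KO it summed to 9.69 to 15.9 CPM and in Lyl1 KO to 5.40 to 14.7 CPM. The mast cell and basophil list summed to 15.9 to 26.5 CPM in the double KO and 16.4 to 135 CPM in wild type. Scl KO held 16.5 to 20.3 CPM of that list and Lyl1 KO 22.6 to 43.3 CPM. The red cell list summed to 27.5 to 117 CPM in the double KO and 198 to 206 CPM in wild type. For this list the sums were 154 to 260 CPM in Scl KO and 340 to 387 CPM in Lyl1 KO. The macrophage list of 9 genes stood at 2943 to 3346 CPM in the double KO, 3305 to 4278 CPM in Scl KO, 4467 to 6592 CPM in Lyl1 KO and 3659 to 5772 CPM in wild type, and 3 of its genes fell in the double KO against wild type. The neutrophil list of 8 genes stood at 399 to 983 CPM in the double KO, 233 to 384 CPM in Scl KO, 327 to 648 CPM in Lyl1 KO and 283 to 603 CPM in wild type, and 1 of its genes fell in the double KO against wild type. Its mean sum was the highest in the double KO, 693 CPM against 473 CPM in wild type, 7 of the 8 genes had a positive log2 fold change between these groups (median 0.40), and 1 of the 8 rose in the double KO against Scl KO. None of the 8 was called up in the double KO against wild type, and the neutrophil ranges overlapped. In double KO 1, 2 and 3 the neutrophil sum was 699, 983 and 399 CPM. In the same libraries Ptprc stood at 212, 283 and 323 CPM and Spn at 123, 247 and 216 CPM. Of the 9 megakaryocyte and platelet markers, 8 fell in the double KO against wild type. Adgrg1, Cd44 and Cxcr4 were thus lower in the same group as the megakaryocyte and platelet markers. The part of these cells in the levels of the members was not tested.

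**Figure D5:**
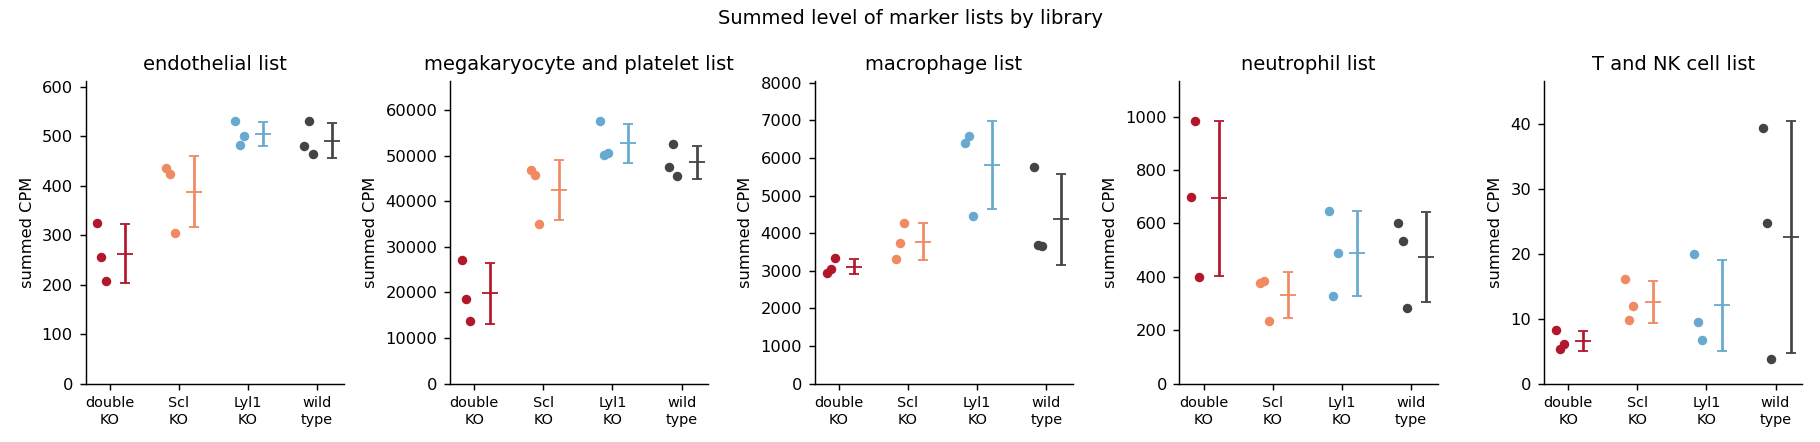
Summed TMM-normalised CPM (vertical axes, linear and from 0, a separate scale for each list) of 5 lists of cell type markers, 1 point a library, with bars beside the points for the group's mean ± SD (n = 3). The megakaryocyte and platelet sum is at most 27074 CPM in the double KO and at least 34978 CPM in the other groups.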

How the data were processed

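RNA was sequenced from 12 libraries labelled as pooled mouse embryos, 3 of each genotype, and groups and replicate numbers came from the labels. The authors deposited raw read counts per gene, with each gene's exon length in bases beside them as another column. Per the submitters' processing notes, STAR 2.5.2b served as aligner to GRCm38, Subread 1.5.2 as counter and limma as a further tool. The counting, per the file headers, used featureCounts with Ensembl release 87 and the reverse strand and did not count reads that map to several places, so antisense genes were kept apart and reads shared by near-identical genes are lost. Total counts lay between 24324685 and 29212443, and limits set by 3 counts cover counting error alone, as PCR copies of a molecule could not be told apart.

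The analysis used edgeR 4.0.16 under R 4.3.3. After a filter on low counts (filterByExpr by group, minimum count 10 and total 15), libraries were scaled with TMM factors, and 1 quasi-likelihood fit of all 12 libraries with robust estimation gave every comparison, with Benjamini-Hochberg adjustment over the 15399 genes tested. The procedure was tested on simulated data. The SE given with a log2 fold change is approximate. It is the absolute log2 fold change divided by the square root of the F statistic of the quasi-likelihood test. RPKM was computed from TMM-scaled counts and the deposited lengths. Ensembl identifiers were matched to symbols for 49326 of 49671 genes.

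The text names all 10 members, the targeted genes, up to 4 called genes of each related list with the smallest adjusted p, the 2 genes most like each member (on log2 CPM with a prior count of 2), called genes within 500 kb of a member and the marker genes. Ptpn6 is named as a gene most like Ptprc, and the neighbours shown were picked from those called after their values were seen. The members and the lists were chosen with earlier results of these data known. The alternatives were size factors in place of TMM, the Wald test of DESeq2 1.42.0, voom in limma 3.58.1, no filter or a mean of at least 1 CPM, the replicate number as a block, only the 6 libraries compared, and each library left out. Deviations from the group means of same-numbered libraries correlated above 0.1 in all 3 pairs only between the double KO and Scl KO (0.150 to 0.441). Scl KO and wild type came close (0.1 to 0.3608). Among numbers 1 and 2, libraries of unlike number correlated as much, double KO 1 with Scl KO 2 at 0.2315 and double KO 2 with Scl KO 1 at 0.1516. Libraries numbered 3 stood apart from these. Double KO 3 correlated with Scl KO 3 at 0.4407, but with Scl KO 1 and 2 at -0.2921 and -0.3042. With wild type 3, Scl KO 3 correlated at 0.3608 and double KO 3 at 0.2359. Between double KO 3 and Lyl1 KO 3 the correlation was 0.0653. What the number 3 stands for was not tested. The labels give no reason to pair libraries by number, so the main fit had no pairs. The block was an alternative only, and it covered all genotypes.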

Additional observations from a re-analysis of the deposited data

Results flagged for a closer look

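The effect of Lyl1 loss differed with the state of Scl for 6 of the 10 genes, by the interaction test of edgeR's quasi-likelihood fit over 15399 genes. Of all genes tested, 9.38% were called in the interaction, 3.51% up and 5.86% down. The difference between the log2 fold change of the double KO against Scl KO and that of Lyl1 KO against wild type was 7.61 for Thy1, 1.76 for Spn, 1.40 for Podxl, 1.40 for Cd33, 1.39 for Ptprc and -1.34 for Cd44. Of these, Thy1, Podxl and Cd33 were called in all 18 alternatives tried. Ptprc was called in 17, Cd44 in 15 and Spn in 13. Leaving out 1 library gave between 3 and 7 called genes of the 10.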

How the results depend on the processing

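Of the values recomputed for the 10 genes, 758 kept their direction and their side of the threshold, 32 lost a call, 21 gained one and 19 changed sign. No called value changed sign. For Scl KO against wild type, where 1 of the 10 genes was called, the count was 2 with DESeq2 size factors, with no filter on low counts, with a mean of at least 1 CPM, with the replicate block and with only the 6 libraries compared, and 3 with DESeq2's Wald test. The second gene was Adgrg1 each time (adjusted p down to 0.00408). When 1 library was left out, the count of called genes ranged from 0 to 1 in this comparison, from 3 to 7 in the interaction (6 with all libraries), from 8 to 10 in the double KO against wild type (9), from 6 to 8 against Scl KO (7) and from 7 to 10 against Lyl1 KO (10), and it was 0 throughout in Lyl1 KO against wild type. The cause was not tested.

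The changes of sign were of values near 0 that were not called. Leaving out 1 library moved the log2 fold change in Lyl1 KO against wild type between -0.3254 and 0.0875 for Ptprc, -0.3011 and 0.0516 for Cd34, -0.4084 and 0.166 for Cd48, -0.0707 and 0.111 for Cd44 and -0.3338 and 0.059 for Cxcr4. It moved Spn in Scl KO against wild type between -0.0921 and 0.4855 and Cd44 between -0.0011 and 0.1794, and Cd34 between -0.171 and 0.086 in double KO over Scl KO and between -0.1269 and 0.2258 in the interaction. With a mean of at least 1 CPM, Cd44 stood at -0.003 in Lyl1 KO against wild type. The cause was not tested.

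Over all groups, libraries with the same replicate number did not deviate together throughout (correlation -0.0432 to 0.441, over 0.1 in 10 of 18 pairs, and 7 of 12 libraries correlated best with their own number). With the replicate number as a block, 8 genes were called in the interaction, 9 in the double KO against wild type, 8 against Scl KO, 10 against Lyl1 KO, 2 in Scl KO and 0 in Lyl1 KO. The block added Adgrg1 (adjusted p = 0.0238) and Cxcr4 (adjusted p = 0.0338) to the calls of the interaction and Cxcr4 to those against Scl KO, and it ended no call of the 10 genes in any comparison. Scaling by size factors moved the median of all genes by at most 0.0203 on the log2 scale. With 3 libraries a group, log2 changes of the size of the SE, 0.17 to 0.82 in the pairwise comparisons, could not be detected. Changes of several SE could also go uncalled by edgeR's quasi-likelihood test. In Lyl1 KO against wild type these were Lyl1 (-1.04 ± 0.24, adjusted p = 0.286) and Podxl (-0.56 ± 0.19, adjusted p = 0.519), among others. Thy1 in the groups other than the double KO rests on 6 to 93 reads a library.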
